A study of Mus musculus with 49 samples.

Results

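The genes described here are 9 surface molecules by which T cells leave, enter or stay in tissues or that mark activated and memory cells: S1pr1, Ccr7, Il7r, Itga4, Itgb7, Itgae, Cd44, Cd69 and Ly6c1. They were taken by name from the 4 T cell RNA tables, where 22211 genes are named in all, and from the open chromatin (ATAC-seq) table, in which 61 of 86911 peaks are annotated to them. All cells came from C57BL/6 mice that were wild type (WT) or carried a change in Elf4, the gene of an ETS-family transcription factor: a knockout (KO) or W250S, a substitution of 1 amino acid. Naive CD4 T cells, collected at 0 h without treatment, gave 4 libraries labelled Elf4 KO with 3 of WT, and separately 3 of Elf4 W250S with 3 of WT. Th17 cells were cultured for 48 h: those called pathogenic received IL-6 together with IL-23 and IL-1b, those called non-pathogenic received TGF-beta and IL-6, and each culture gave 3 W250S and 3 WT libraries. ATAC-seq was run on naive CD4 T cells, 3 libraries labelled KO and 3 WT. How the KO allele was made, the age of the mice and the way naive cells were isolated are not given in the sources used here, and the labels do not say whether libraries came from separate animals, so p-values measure only the spread between these samples.

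Naive T cells circulate between blood and lymph nodes. Ccr7, a chemokine receptor, guides them into the node, and S1pr1, a receptor for sphingosine 1-phosphate, guides them out again, while Il7r, the alpha chain of the interleukin-7 receptor, carries the signal that keeps naive and memory cells alive. Itga4 and Itgb7 encode the chains of the integrin that binds the vessels of the gut, and Itgae encodes CD103, which pairs with the Itgb7 chain to hold cells in epithelium. Activation brings up Cd69, which pulls the S1pr1 protein off the surface, and Cd44, a hyaluronan receptor that stays high on memory cells. Ly6c1 encodes a lipid-anchored surface protein used to divide T cell subsets. In mice the transcription factor Klf2 is known to drive S1pr1, and Foxo1 to drive Il7r and Klf2.

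RefSeq promoter windows (GRCm38.p6, the same assembly as the mm10 of the peak table) matched 5 of the 9 genes: Itga4, Itgb7, Il7r, Cd44 and Ly6c1. The 120 bases just before the annotated start are shown for 4 of them, read 5′ to 3′ on the gene's strand, with the ETS core GGAA or its reverse complement TTCC in capitals. Cd44 and Ly6c1 are shown because their RNA differed between genotypes, Il7r because its RNA fell most in culture, and Itga4 because its start lies in a strong peak. The Cd44 stretch is chr2:102901666-102901785 on the minus strand, the Il7r stretch chr15:9529877-9529996 on the minus strand, and the Itga4 stretch chr2:79255306-79255425 on the plus strand. Ly6c1 has 2 annotated starts, with stretches at chr15:75048838-75048957 and chr15:75048664-75048783, both on the minus strand.
Cd44: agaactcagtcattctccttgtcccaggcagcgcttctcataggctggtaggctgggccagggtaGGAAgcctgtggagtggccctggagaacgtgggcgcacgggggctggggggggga
Il7r: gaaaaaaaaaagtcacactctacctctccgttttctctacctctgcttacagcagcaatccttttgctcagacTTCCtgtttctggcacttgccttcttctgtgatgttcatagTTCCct
Itga4: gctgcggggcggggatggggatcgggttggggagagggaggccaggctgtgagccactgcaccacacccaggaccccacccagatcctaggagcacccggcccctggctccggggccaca
Ly6c1, upstream start: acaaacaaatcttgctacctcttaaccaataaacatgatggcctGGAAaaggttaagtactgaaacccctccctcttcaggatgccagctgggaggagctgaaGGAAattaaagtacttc
Ly6c1, downstream start: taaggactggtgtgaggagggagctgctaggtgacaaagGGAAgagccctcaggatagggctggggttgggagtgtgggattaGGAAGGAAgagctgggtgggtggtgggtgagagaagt
Over the whole window, searched on both strands with overlaps counted, GGAA occurred 8 times at Cd44, 4 times at Il7r, once at Itga4, 2 times at Itgb7, and 4 and 8 times at the Ly6c1 starts. That core was present in 96.0% of 32851 windows of the same length, so its presence sets no gene apart. The printed Itga4 stretch holds none. The longer ETS form CCGGAAG, which contains GGAA, was in 8.9% of all windows and in none of these, and CACCC, the core of KLF factors, was in 57.5% of all windows, with 4 matches at Itga4, 4 at Itgb7, 3 at the downstream Ly6c1 start and 0 at Cd44 and Il7r. A match is a run of letters, not a measured binding site.

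RNA values are deposited CPM, counts scaled to library size, and they were compared as log2(CPM + 1), so that changes of genes near 1 CPM are understated. The deposited columns sum to 472848 to 543838, so the scaling covered more than the genes listed. All 8 T cell markers and both CD4 markers averaged above 1 CPM in every group, while Cd8a and Cd8b1 together stayed at or below 7.76 CPM. The summed Th17 markers were 34.5 to 114.5 CPM in the Th17 libraries and at most 0.324 CPM in naive ones, whose tables list only 1 or 2 of the 4. The check of the targeted gene did not bear out a label, though it cannot settle it. Elf4 RNA was 208.5, 180.4, 178.1 and 189.9 CPM in the naive libraries labelled KO and 185.5, 195.1 and 191.7 CPM in their WT, a difference of -0.01 ± 0.07 (log2, SE; limma adjusted p = 0.932). Whether the KO allele leaves the transcript in place is not given in the sources used here, so RNA of the whole gene cannot decide. These libraries are therefore called KO-labelled here, and every direction drawn from them rests on that label. The ATAC-seq libraries hold no RNA by which the label could be checked.

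The receptors differed more between naive and cultured WT cells than between genotypes. From naive to Th17 cells, 8 of the 9 genes passed the test in both cultures: 6 fell (S1pr1, Ccr7, Il7r, Itga4, Itgb7, Ly6c1) and Cd44 and Cd69 rose, and the naive and cultured WT libraries did not overlap for any of these 8. In this contrast 82.7% of 13606 genes tested passed for pathogenic and 82.5% for non-pathogenic cultures (limma over the 18 libraries of the W250S tables, Benjamini-Hochberg adjusted p below 0.05), so passing in itself sets no gene apart. Groups did not overlap for 81.0% and 80.8% of them. The median change of the 8 was -2.65 in pathogenic and -2.60 in non-pathogenic cultures, against 0.27 and 0.26 over all genes tested. Naive and Th17 values were deposited in separate tables, so table and culture cannot be told apart, and in bulk RNA fewer cells of a type cannot be told apart from less RNA per cell. Scaling of each library by its own total alone was only partly shown. The p-values between WT groups of different tables are therefore a description.

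**Figure D1:**
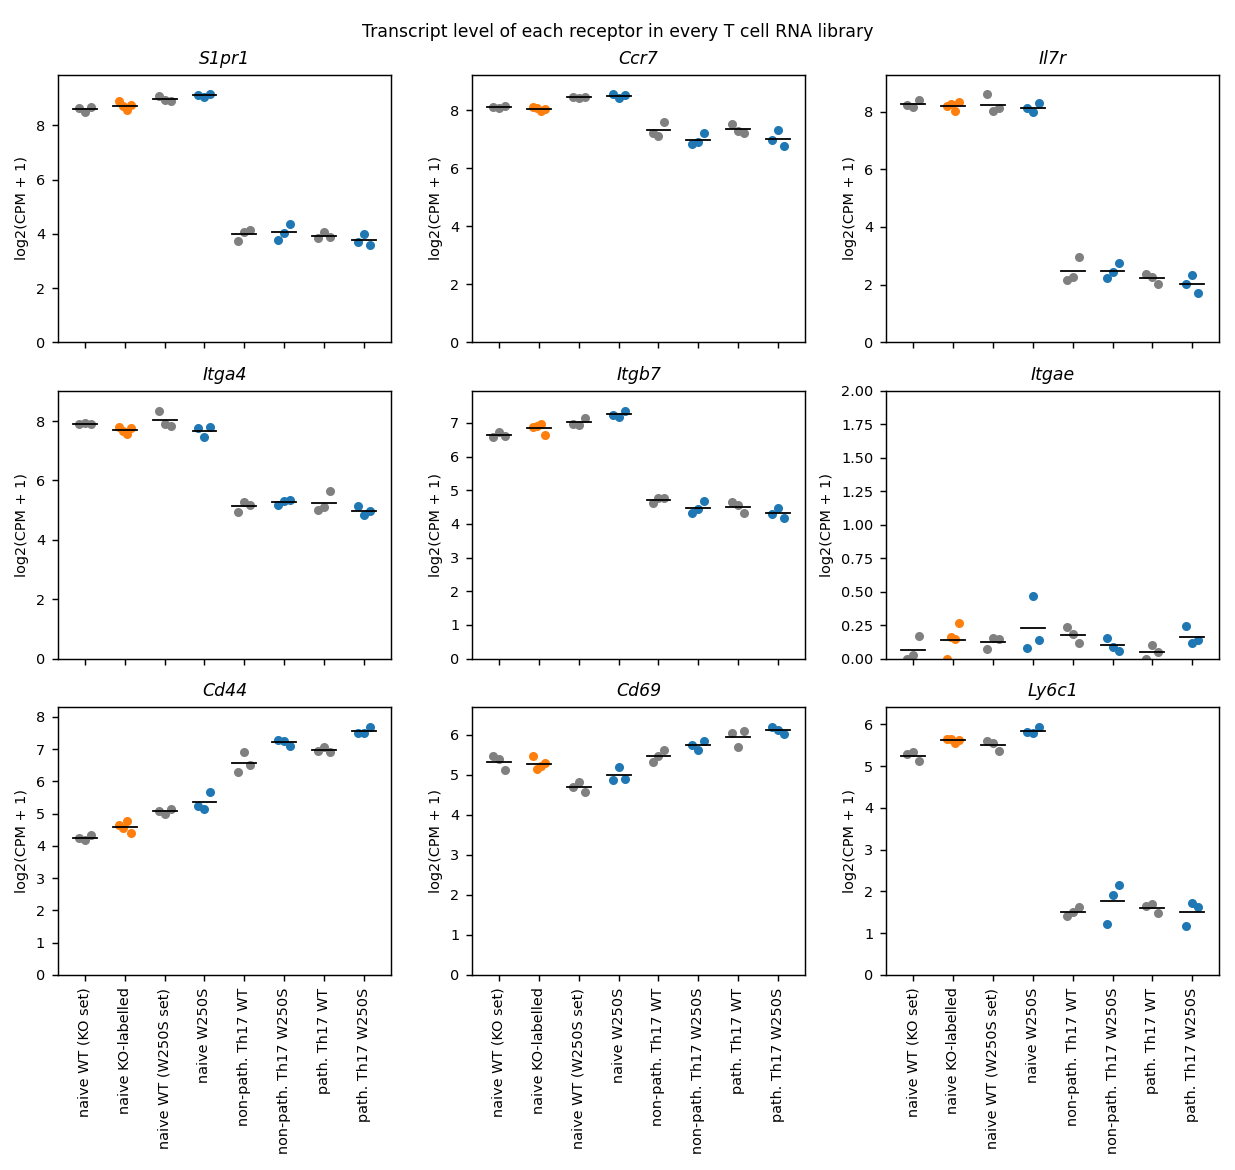
Level of each receptor gene, as log2(CPM + 1), in each of 25 T cell RNA libraries (points) with the group mean (bar); grey is WT, orange KO-labelled and blue W250S, and each panel has its own scale. S1pr1, Il7r and Ly6c1 drop from naive to Th17 libraries, Cd44 climbs, and Itgae stays at or below 0.382 CPM everywhere.

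Of the receptors for egress, entry and survival, Il7r fell most. It was at 257 to 387 CPM in the 3 naive WT libraries and at 4.20, 3.76 and 3.11 CPM in WT pathogenic Th17 cells, a ratio of means of 83.1 (log2 difference -6.02 ± 0.19, limma adjusted p = 4.41e-18). In non-pathogenic WT cells it was 3.51, 3.81 and 6.77 CPM, 65.3-fold below naive. S1pr1 went from 545, 488 and 477 CPM in naive WT to 13.4, 15.6 and 13.7 CPM in pathogenic and 12.2, 15.9 and 16.6 CPM in non-pathogenic cells, 35.4-fold and 33.8-fold lower. No cultured library came near a naive one for either gene. Ccr7 fell by far less, from 354, 341 and 351 CPM to 181.5, 154 and 149 CPM in pathogenic and 149, 138 and 192 CPM in non-pathogenic cells, 2.16-fold and 2.18-fold lower (log2 -1.11 ± 0.13 and -1.14 ± 0.13).

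The gut-homing integrin chains fell together. Itga4 was 325.3, 237 and 229 CPM in naive WT cells and 30.8, 33.5 and 48.7 CPM in pathogenic WT cells, 7.00-fold lower, and 29.4, 37.6 and 35.2 CPM in non-pathogenic cells, 7.74-fold lower. Itgb7, its partner chain, was 123, 123 and 140.1 CPM in naive, 23.9, 22.7 and 18.9 CPM in pathogenic and 23.6, 26.4 and 26.3 CPM in non-pathogenic cells, 5.89-fold and 5.07-fold lower. The groups did not overlap for either chain. Itgae was at or below 0.382 CPM in all 25 libraries and reached 1 CPM in none, so it was not tested in any RNA comparison. Far below that filter, its groups did not overlap in 2 comparisons: it was 0.0851 to 0.181 CPM in pathogenic W250S against at most 0.0726 CPM in pathogenic WT cells, and 0.0844 to 0.175 CPM in non-pathogenic WT cells.

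Cd44 rose from 32.9, 30.8 and 34.0 CPM in naive WT cells to 121.5, 133 and 120 CPM in pathogenic and 78.0, 119.8 and 89.3 CPM in non-pathogenic WT cells, 3.84-fold and 2.94-fold. Cd69, the early activation antigen, rose from 24.7, 27.1 and 22.9 CPM to 65.0, 50.6 and 67.6 CPM in pathogenic cells (2.45-fold) and to 39.0, 43.2 and 48.2 CPM in non-pathogenic cells (1.75-fold). Ly6c1 fell from 47.3, 46.1 and 40.2 CPM to between 1.65 and 2.26 CPM in the 6 WT cultured libraries, 21.7-fold lower in pathogenic and 24.1-fold lower in non-pathogenic cells. Its near-identical neighbour Ly6c2 was far lower, at 1.20 to 1.75 CPM in the same naive libraries, and reads shared between the copies cannot be assigned with certainty. After median-ratio scaling the median over all genes moved from 0.27 to 0.03 in the pathogenic and from 0.26 to 0.02 in the non-pathogenic contrast. The 8 genes kept their directions and calls under that scaling, with Ccr7 at -1.39 and -1.41 and Cd69 at 0.98 and 0.51 (log2, pathogenic and non-pathogenic).

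**Figure D2:**
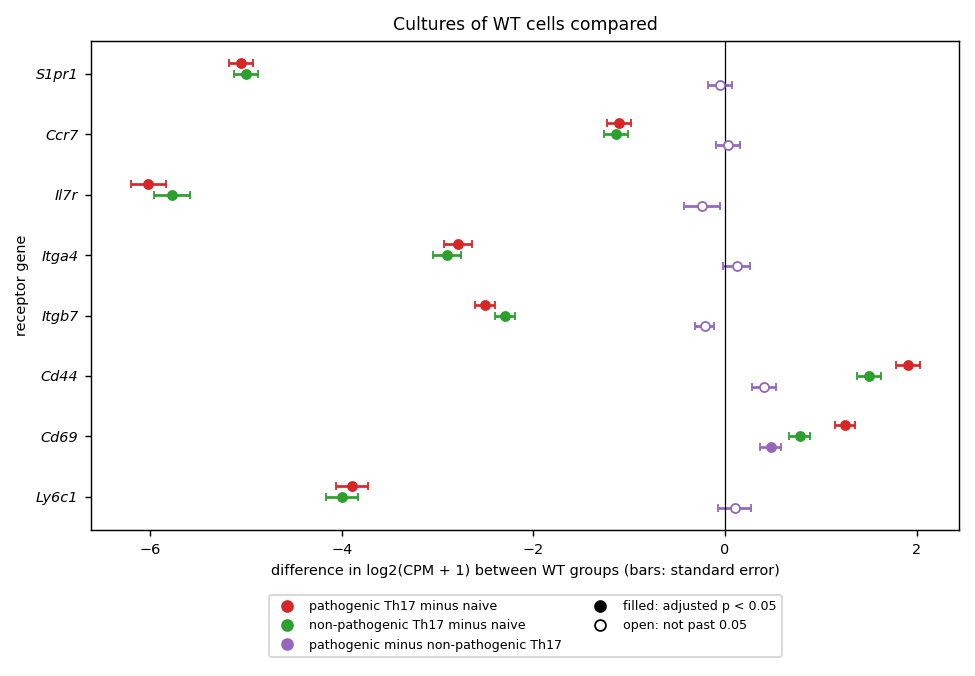
Difference in log2(CPM + 1) between WT groups for the 8 tested genes (points, with standard errors), filled where the adjusted p is below 0.05. Il7r and S1pr1 lie below -4.9 in both cultures, Cd44 and Cd69 above 0, and only Cd69 is filled between the cultures.

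Genes around these receptors moved in both directions in the same contrasts. Of 24 other trafficking receptors, 18 were tested, and 7 rose and 10 fell in each culture. Ccr4, a skin-homing chemokine receptor, went from 0.558 to 77.1 CPM in pathogenic cells. Of 9 regulators of homing and the naive state, 6 fell and 2 rose in pathogenic cells, and 7 fell and 2 rose in non-pathogenic cells. Klf2 fell from 211 to 3.25 and 4.61 CPM, Klf3 from 163 to 8.72 and 8.21 CPM, and Foxo1 from 461 to 105 and 110 CPM (pathogenic and non-pathogenic).

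The list of gamma-chain cytokine receptors and signalling did not follow Il7r as a group. Its 13 genes include the IL-6 receptor chains, Jak1, Jak3, Stat5a, Stat5b and Bcl2. Of the 13, 5 rose and 7 fell in pathogenic cells and 5 rose and 6 fell in non-pathogenic cells. Il2ra, the inducible IL-2 receptor chain, rose from 1.41 to 795 CPM in pathogenic cells, and Il2rb, shared by the IL-2 and IL-15 receptors, from 6.93 to 176 CPM, whereas Il6st and Il6ra, the chains of the IL-6 receptor, fell from 258 to 21.5 CPM and from 309 to 32.0 CPM. Of 15 tested memory and effector genes 10 rose and 4 fell in each culture, and of 20 early activation genes 14 rose, with 3 lower in pathogenic and 4 in non-pathogenic cells. Tissue-residency genes were mostly lower, 6 of 9 tested against 2 that rose in each culture, among them Tgfbr2, the TGF-beta receptor that supports residency, from 390.4 to 47.0 CPM in pathogenic cells. Over all genes tested, 51.1% rose and 31.6% fell in the pathogenic contrast, and 51.0% and 31.5% in the non-pathogenic one. The summed T cell markers were also lower, at 772 to 848 CPM in pathogenic and 909 to 936 CPM in non-pathogenic WT libraries against 1402 to 1650 CPM in naive WT; their part in the receptor changes was not tested.

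Between the WT cultures the receptors differed little. Cd69 was the only member past the threshold, of 8 tested, with 0.588% of 13606 genes called. It was higher in pathogenic cells by 0.48 ± 0.11 (log2; limma adjusted p = 0.0445), a ratio of 1.41, with all 3 pathogenic libraries above all 3 non-pathogenic ones. The call was lost with a pseudocount of 0.1, without the filter on low values and after median-ratio scaling (adjusted p 0.0575 to 0.0677), and also without pathogenic WT replicate 1 or 3 or non-pathogenic WT replicate 1 or 2 (0.101 to 0.256). Cd44 was likewise apart between the groups but did not pass (0.40 ± 0.13, adjusted p = 0.215); without non-pathogenic WT replicate 2, at 119.8 CPM, it was 0.58 (adjusted p = 0.0211). The other 6 genes had differences between -0.24 and 0.12 with overlapping groups. Groups were thus apart for 2 of 8 members, against 16.6% of all genes tested. Of the lists, Stat5a and Stat5b, which transmit IL-7 and IL-2 signals, were higher in pathogenic cells (limma adjusted p 1.6e-05 and 0.0287).

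In naive CD4 T cells, Cd44 and Ly6c1 were modestly higher in KO-labelled than in WT libraries. Those were 2 of 8 tested members, both higher, against 8.02% of 12891 genes called, 4.38% higher and 3.64% lower. Ly6c1 was 48.8, 49.5, 46.2 and 48.0 CPM in KO-labelled cells and 38.4, 39.2 and 34.0 CPM in WT. All 4 KO-labelled libraries lay above all WT libraries, by 0.37 ± 0.07 on the log2 scale (ratio 1.29, limma adjusted p = 0.00781), and the call held without each library in turn (adjusted p 0.00998 to 0.0343). Ly6c2, its near-identical copy, was 1.76 ± 0.37 against 1.14 ± 0.23 CPM (SD, n = 4 and 3) and did not pass (adjusted p = 0.117). Cd44 was 24.0, 22.6, 26.4 and 20.1 CPM in KO-labelled and 17.9, 17.3 and 19.2 CPM in WT cells, again without overlap, a difference of 0.34 ± 0.09 (ratio 1.28, adjusted p = 0.0411). The Cd44 call was lost without the filter on low values (adjusted p = 0.0511) and without any of WT replicates 1, 2 and 3 or KO-labelled replicates 1, 2 and 3 (0.0605 to 0.132), and was kept without KO-labelled replicate 4 (0.00978).

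Among the integrins, Itga4 was 223, 200.4, 189.9 and 219 CPM in KO-labelled and 238, 244 and 235 CPM in WT cells. The groups did not overlap, but the difference of -0.20 ± 0.07 did not pass (adjusted p = 0.115). Itgb7 was 116, 119, 125 and 99.0 CPM against 95.5, 106 and 97.6 CPM (0.20 ± 0.08, adjusted p = 0.171), and KO-labelled replicate 4 alone lay within the WT range; without it the adjusted p was 0.0336. The groups did not overlap for 3 of the 8 genes, against 21.2% of all genes tested. S1pr1, Ccr7, Il7r and Cd69 overlapped between the groups, with differences between -0.05 and 0.13 and adjusted p of 0.385 or more.

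In the naive W250S set no member passed in the main fit, which held no replicate block. With 4.14% of 12384 genes called, 3.29% higher and 0.856% lower, 0 of 8 members were, although 5 of the 8 had groups that did not overlap (21.7% of all genes) and an unadjusted p below 0.05 (16.8% of all genes). The median over all genes was 0.07, and 0 after median-ratio scaling. Under that scaling Cd44 was 0.20 ± 0.11, Cd69 0.23 ± 0.13, Itgb7 0.16 ± 0.07 and Ly6c1 0.26 ± 0.09. Itga4 instead moved further from 0, from -0.356 to -0.439 ± 0.135, and did not pass (limma adjusted p = 0.12). Ly6c1 was 55.5, 54.1 and 60.3 CPM in W250S and 47.3, 46.1 and 40.2 CPM in WT cells (0.34 ± 0.11, adjusted p = 0.0806); without WT replicate 1 it passed, at 0.39 (adjusted p = 0.0424). Cd44 was 36.4, 34.7 and 49.5 CPM against 32.9, 30.8 and 34.0 CPM (0.28 ± 0.13, adjusted p = 0.257), and the size rested largely on W250S replicate 3: without it the difference was 0.12, with the groups still apart. Cd69 was 28.5, 35.9 and 29.0 CPM against 24.7, 27.1 and 22.9 CPM (0.31 ± 0.12, adjusted p = 0.169). With the replicate number as a block, Ly6c1, Cd69 and Itga4 passed (limma adjusted p 0.0103, 0.0367 and 0.00943).

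Itga4 was lower in the W250S cells as in the KO-labelled ones, at 216, 175 and 221 against 325.3, 237 and 229 CPM (-0.36 ± 0.13, adjusted p = 0.163). WT replicate 1 was the highest of all, and without it the difference was -0.20. Itgb7 was higher, at 149, 145 and 164 against 123, 123 and 140.1 CPM (0.25 ± 0.11, adjusted p = 0.235). S1pr1, Ccr7 and Il7r overlapped between genotypes, with differences of 0.13, 0.05 and -0.10. The difference between the KO-labelled and W250S effects, fitted over the 13 naive libraries, passed for no member and for 0.0% of 13138 genes (limma; 1 member, Cd69, and 5.07% of genes at an unadjusted p below 0.05). It was 0.06 ± 0.16 for Cd44, 0.02 ± 0.11 for Ly6c1 and -0.35 ± 0.16 for Cd69 (adjusted p = 0.959).

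Of the genes of the surrounding lists, 8 of 72 tested passed in KO-labelled naive cells, beside 8.02% of all genes, and 5 of 73 in naive W250S cells, beside 4.14%. In the KO-labelled libraries 2 of 14 tested trafficking receptors passed: the gut-homing chemokine receptor Ccr9 was higher (6.72 against 4.29 CPM, adjusted p = 0.00566) and the integrin chain Itgav lower (6.40 against 10.0 CPM, adjusted p = 0.0411). Of 9 regulators only Lef1, a factor of naive T cells, was higher (283 against 218 CPM, adjusted p = 0.018), and Tcf7 and Satb1 did not pass. In the W250S libraries 0 of 14 trafficking receptors and 0 of 9 regulators passed.

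Il2rb and Ahnak were higher in both naive comparisons. Il2rb, a chain that memory cells carry for IL-15, was 8.44 to 8.51 CPM in KO-labelled against 4.67 to 6.39 CPM in WT libraries (adjusted p = 0.00597), and 9.98, 10.9 and 14.3 CPM in W250S against 7.34, 6.44 and 7.02 CPM in WT (adjusted p = 0.00568). Ahnak, a very large scaffold protein, was 143, 113, 124 and 149.6 CPM in KO-labelled against 66.7, 56.4 and 72.6 CPM in WT cells, a difference of 1.01 (adjusted p = 0.000273). In W250S it was 115, 134.5 and 91.4 CPM against 59.4, 53.6 and 42.6 CPM, a difference of 1.11 (adjusted p = 6.38e-05). In the KO-labelled comparison Il2rb and Il15ra were the 2 of 12 tested genes of the gamma-chain list that rose, and Ahnak the 1 of 11 memory and effector genes. In the W250S comparison Il2rb was the 1 of 13, and Ahnak and Id2 the 2 of 11. Of 18 early activation genes 1 rose in the KO-labelled cells and 2, Fosb and Fos, in the W250S cells, and of 8 residency genes 1 (P2rx7) and 0.

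Some marker lists of other cells also differed between genotypes in the naive sets, not all in the same direction. The summed CD8, regulatory T, NK and B cell lists overlapped between genotypes in both sets. The summed list of 5 memory CD4 T cell markers was 8.58 to 9.00 CPM in KO-labelled against 4.90 to 6.54 CPM in WT libraries, and 10.4, 11.4 and 15.4 CPM in W250S against 6.93 to 7.70 CPM in WT. Nearly all of each sum was Il2rb; Cxcr3 was at most 0.429 CPM on average, and Ccl5, S100a4 and Tbx21 were at most 0.131 CPM in every naive group. W250S replicate 3 had the highest sum as well as the highest Cd44. The summed dendritic cell list was 1.25 to 1.65 against 0.392 to 0.561 CPM in the KO-labelled comparison and 1.61 to 3.35 against 0.533 to 0.880 CPM in the W250S comparison, mostly Cd74, with 3 of its 6 genes listed and Itgax under 0.1 CPM in all 4 groups. The erythroid list summed to 23.5, 4.74, 3.90 and 0.0188 CPM in KO-labelled replicates 1 to 4 and to at most 0.193 CPM in WT, and was 3.06 CPM in W250S replicate 3 against at most 0.797 CPM in the other 5 libraries of that set. The myeloid list was 4.41 to 5.48 CPM in KO-labelled against 3.21 to 3.69 CPM in WT libraries, with Fcgr3 at 2.57 against 1.21 CPM and Itgam at 0.678 against 1.28 CPM, and the list was 2.30 to 2.50 CPM in W250S against 2.62 to 2.74 CPM in WT. The gamma delta T cell list was lower in both, at 3.24 to 4.06 against 4.12 to 5.41 CPM and 4.41 to 5.22 against 6.16 to 6.38 CPM. The part of these cells in the Cd44 and Ly6c1 differences was not tested.

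**Figure D3:**
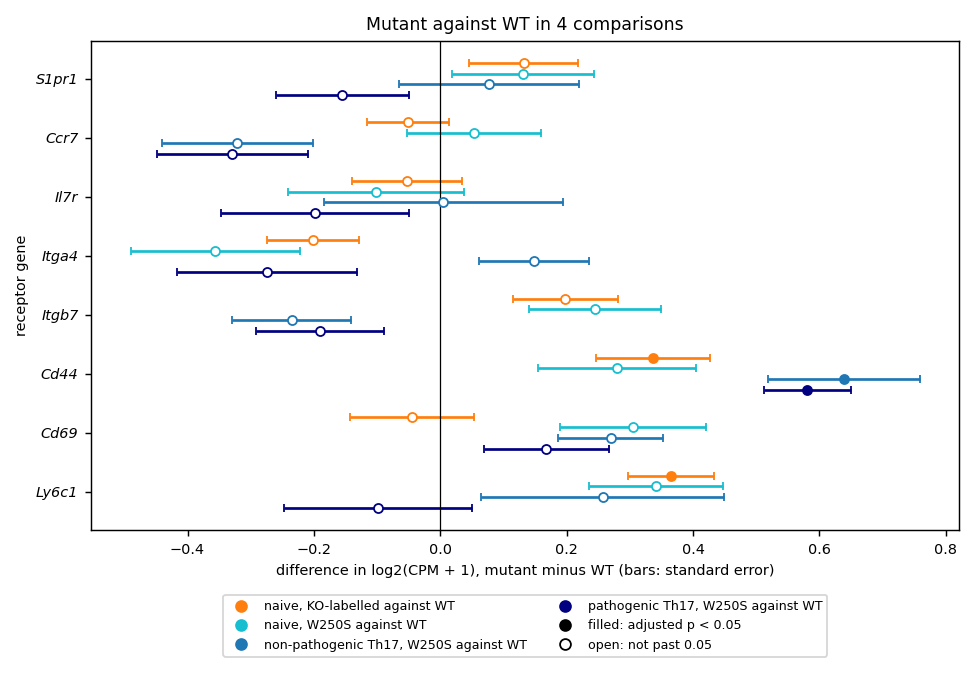
Difference in log2(CPM + 1) between mutant and WT for the 8 tested genes in 4 comparisons (points, with standard errors), filled where the adjusted p is below 0.05. Cd44 lies above 0 in all 4 and is filled in 3, and Ly6c1 is filled in KO-labelled naive cells.

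In Th17 cells the W250S genotype went with higher Cd44. It was the only one of 8 tested members that passed in either culture, with 2.07% of 12780 genes called in pathogenic cells (0.9% higher, 1.17% lower) and 7.07% of 12807 in non-pathogenic cells (4.13% higher, 2.94% lower). In pathogenic cells Cd44 was 178, 180.1 and 205 CPM in W250S and 121.5, 133 and 120 CPM in WT, a difference of 0.58 ± 0.07 (ratio 1.5, limma adjusted p = 0.00264), and the call held without each library in turn (0.00517 to 0.0233). In non-pathogenic cells it was 154, 151 and 137 CPM against 78.0, 119.8 and 89.3 CPM, 0.64 ± 0.12 (ratio 1.54, adjusted p = 0.0153). All W250S libraries lay above all WT libraries in both cultures. The non-pathogenic call was lost without WT replicate 3 or W250S replicate 1 or 2 (adjusted p 0.0899, 0.085 and 0.104).

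No other receptor passed in Th17 cells in the main fit. Ccr7 was 125, 157 and 107 CPM in W250S against 181.5, 154 and 149 CPM in WT pathogenic cells (-0.33 ± 0.12, adjusted p = 0.172), and 112, 120.3 and 149 against 149, 138 and 192 CPM in non-pathogenic cells (-0.32 ± 0.12, adjusted p = 0.116). The groups overlapped in both cultures, and the difference passed without pathogenic W250S replicate 2 (-0.48, adjusted p = 0.0326) or without non-pathogenic WT replicate 2 (-0.42, adjusted p = 0.0306). Cd69 was 52.8, 48.4 and 56.4 CPM in W250S against 39.0, 43.2 and 48.2 CPM in WT non-pathogenic cells, just apart (0.27 ± 0.08, adjusted p = 0.0694), and overlapped in pathogenic cells (0.17 ± 0.10, adjusted p = 0.387). After median-ratio scaling Ccr7, Cd69 and Itgb7 passed in non-pathogenic cells, at -0.36, 0.23 and -0.27, while all genes called went from 906 to 1703. With the replicate number as a block, Ccr7 and Cd69 passed there (limma adjusted p 0.00828 and 0.0278).

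Itgb7 was 19.1, 20.6 and 24.9 CPM in W250S against 23.6, 26.4 and 26.3 CPM in WT non-pathogenic cells (-0.24 ± 0.09, adjusted p = 0.136) and 18.7, 21.3 and 16.98 against 23.9, 22.7 and 18.9 CPM in pathogenic cells (-0.19 ± 0.10, adjusted p = 0.331). Itga4 overlapped in both cultures, with differences of 0.15 and -0.27. S1pr1, Il7r and Ly6c1, already low in culture, stayed within overlapping ranges, between -0.20 and 0.26. Groups were apart for 1 of 8 members in pathogenic cells and 2 of 8 in non-pathogenic cells, against 24.4% and 31.6% of all genes.

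Whether the W250S effect differed between cell states was tested directly, and no member passed. For pathogenic minus non-pathogenic cells, Cd44 gave -0.06 ± 0.18 (limma adjusted p = 0.974) and Itga4 -0.42 ± 0.21 (limma unadjusted p = 0.0524), with 0.0% of 13606 genes called, and 0 members and 5.71% of genes at an unadjusted p below 0.05. For pathogenic minus naive cells (1.51% of genes called; 2 members and 13.3% of genes at an unadjusted p below 0.05), Cd44 gave 0.30 ± 0.18, Ccr7 -0.38 ± 0.18 and Itgb7 -0.44 ± 0.15 (adjusted p 0.506, 0.362 and 0.153). For non-pathogenic minus naive cells (1.62% called; 3 members and 17.2% of genes at an unadjusted p below 0.05) they gave 0.36 ± 0.18, -0.38 ± 0.18 and -0.48 ± 0.15 (0.305, 0.29 and 0.0921), and Itga4 gave 0.50 ± 0.21 (0.214). Itgb7, above WT in naive W250S cells and below WT in both cultures, passed in the last contrast without naive WT replicate 3 or non-pathogenic W250S replicate 3 (lowest adjusted p 0.0457).

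Some genes of the lists around the receptors rose in both W250S cultures. Of the list genes, 7 of 82 tested (8.54%) passed in pathogenic cells, beside 2.07% of all genes. In non-pathogenic cells 17 of 83 (20.5%) passed, beside 7.07%. The lists were chosen with earlier results of these data known. Ccr6, the chemokine receptor typical of Th17 cells, was higher in pathogenic (10.8 against 6.70 CPM, adjusted p = 0.0385) and non-pathogenic W250S cells (19.0 against 10.7 CPM, adjusted p = 0.0135), 1 of 19 tested trafficking genes that rose in each. Selplg, a selectin ligand, fell in non-pathogenic cells (120 against 145 CPM, adjusted p = 0.0475). Id3, an inhibitor of E proteins in naive and memory cells, was higher in both (60.4 against 40.7 and 45.9 against 29.2 CPM), as was Stat5a (147 against 116 and 89.6 against 75.2 CPM). Ahnak was higher again, at 158 against 107 CPM (adjusted p = 0.0376) and 153 against 115 CPM (adjusted p = 0.0444).

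In all, 3 of 12 tested memory and effector genes rose and 0 fell in pathogenic cells, and 3 of 13 rose and 1, Lgals1, fell in non-pathogenic cells. Foxp1 and Bach2, factors that hold T cells in the naive state, were also higher in non-pathogenic W250S cells (197 against 157 and 397 against 329 CPM), giving 3 of 9 regulators against 1 of 9 in pathogenic cells. Of 20 early activation genes 1 rose in pathogenic cells, and 3 rose and 2 fell in non-pathogenic cells. The summed Th17 markers were 55.5 to 91.2 CPM in W250S against 34.5 to 50.7 CPM in WT pathogenic cells, and 82.2 to 114.5 against 44.8 to 65.3 CPM in non-pathogenic cells. The B cell list, mostly Ebf1, was 3.55 to 5.17 against 1.81 to 2.16 CPM and 1.95 to 2.42 against 1.02 to 1.62 CPM. Cd74 of the dendritic list was lower in W250S, at 4.28 against 6.48 and 3.03 against 4.43 CPM. The part of these markers in the Cd44 difference was not tested. The summed memory CD4 list, mostly Il2rb, overlapped between genotypes in both cultures, but 1 of its 4 tested genes passed as higher in each, and S100a4 was at 2.26 against 1.21 CPM in pathogenic and 3.04 against 1.45 CPM in non-pathogenic cells.

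Open chromatin at these genes did not differ detectably between KO-labelled and WT naive cells. Of 61 peaks annotated to the 9 genes, 38 passed the filter on low counts, and 0 of them were called, with 0.00851% of 47000 peaks called in all (edgeR quasi-likelihood test; 4 member peaks and 9.87% of all peaks at an unadjusted p below 0.05, and 0 member peaks called by DESeq2). Libraries held 6.19 to 13.71 M reads in peaks. The lowest adjusted p of a member peak was 0.369. Of the 38, 15 lay above 0 and 23 below, with a median of -0.08 against -0.01 over all tested peaks. Peak positions, genes and annotations are the authors' (mm10), and values are CPM of the reads in peaks.

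The strongest peak of the group was the Ccr7 start, chr11:99154480-99155767, at 107.9, 97.0 and 89.1 CPM in KO-labelled and 99.7, 110.7 and 106.6 CPM in WT libraries (-0.13 ± 0.08, adjusted p = 0.614). The Cd69 start peak, chr6:129274689-129276074, was 88.5, 66.9 and 75.9 against 74.9, 84.0 and 79.8 CPM (-0.06 ± 0.09). The Itga4 start peak, chr2:79254643-79255841, which covers the Itga4 stretch shown earlier, was 61.1, 57.1 and 57.5 against 58.0, 68.2 and 65.6 CPM (-0.15 ± 0.08). In each of the 3 the groups overlapped. The single large S1pr1 peak, in its coding exon at chr3:115711629-115712965, was 35.8, 33.5 and 31.1 against 32.3, 33.6 and 34.4 CPM (-0.02 ± 0.10).

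All 4 tested Cd69 peaks and all 6 tested Cd44 peaks lay below 0 in KO-labelled cells, and none was called. Peaks share the same libraries, so their signs are not independent. The 6 at Cd44 ran from -0.62 to -0.02, while Cd44 RNA was higher in KO-labelled cells. The start peak, chr2:102900621-102901626, was 10.1, 8.53 and 10.4 CPM against 9.85, 12.2 and 11.9 CPM (-0.25 ± 0.16, adjusted p = 0.655), and the largest, in intron 1 at chr2:102873709-102874488, was 35.5, 27.3 and 30.9 against 27.8, 38.3 and 39.8 CPM (-0.20 ± 0.12). An intron 5 peak at chr2:102848968-102849404, chosen after its values were seen, had groups apart, at 3.84 ± 0.40 against 5.86 ± 0.80 CPM (SD, n = 3 each; -0.62 ± 0.23, adjusted p = 0.401). Ly6c1 had 1 peak, in coding exon 3 at chr15:75046982-75047645, with 2.15 ± 0.35 against 1.67 ± 0.63 CPM and overlapping groups. Neither Ly6c1 stretch shown earlier lies in a peak annotated to that gene.

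Il7r had its largest peak in intron 1, chr15:9527918-9528704, at 35.8, 24.6 and 29.2 against 23.9, 23.8 and 26.7 CPM (0.25 ± 0.13, adjusted p = 0.553). Its start peak, chr15:9529814-9530125, which covers the Il7r stretch shown earlier, was 3.36, 3.54 and 3.77 against 5.65, 6.41 and 3.50 CPM (-0.54 ± 0.27, adjusted p = 0.54). Itgb7 had its largest peak at the end of the gene, chr15:102224544-102225871 (48.4 ± 2.3 against 50.5 ± 7.2 CPM), and a weaker one at its start, chr15:102231707-102232369 (6.76 ± 1.25 against 6.19 ± 1.88 CPM). Itgae, nearly silent in RNA, had 8 peaks, all weak, 3 of them tested, the strongest in coding exon 22 at 3.37 ± 0.71 against 3.15 ± 0.62 CPM. The lowest adjusted p belonged to a small Itga4 peak next to the start, chr2:79255841-79256005, named after its values were seen, at 0.948, 0.520 and 0.592 CPM in KO-labelled and 1.94, 1.07 and 2.16 CPM in WT libraries. The groups did not overlap, and the difference of -1.33 ± 0.45 was the largest of a member peak but rested on 5 to 21 reads a library.

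**Figure D4:**
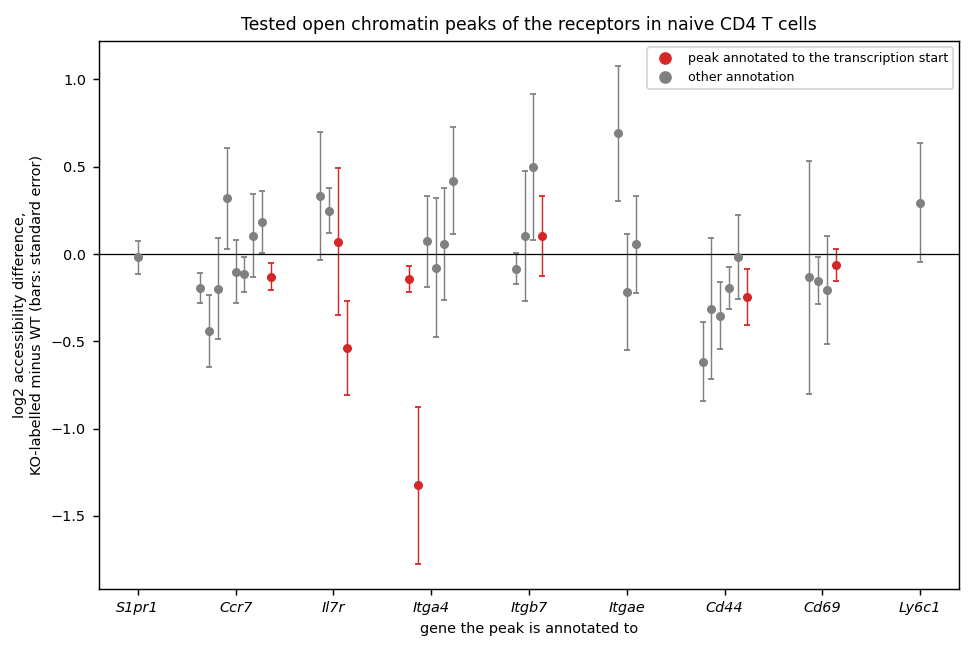
Difference in log2 accessibility between KO-labelled and WT naive cells for the 38 tested peaks of the 9 genes (points, with standard errors; red where the peak is annotated to the transcription start). All 6 Cd44 peaks and all 4 Cd69 peaks lie below 0, and no peak passed the threshold.

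Ordered by their means over the 8 groups, S1pr1, Il7r, Itga4, Itgb7, Ccr7 and Ly6c1 had all 4 naive groups above all 4 Th17 groups, and the lowest naive library was above the highest Th17 library for each. Within the Th17 groups the neighbours in that order overlapped for all 6 genes. For Cd44 the order ran the other way and no neighbouring groups overlapped, though some gaps were narrow. The means of the Th17 groups were 188 CPM in pathogenic W250S, 147 in non-pathogenic W250S, 125 in pathogenic WT and 95.7 in non-pathogenic WT. Below them came naive W250S (40.2), naive WT of that set (32.5), KO-labelled (23.3) and its WT (18.2). The highest non-pathogenic WT library, at 119.8 CPM, lay just under the lowest pathogenic WT one. The lowest naive W250S library was at 34.65 CPM, against 33.97 CPM for the highest WT library of that set. Most neighbouring groups came from different tables, and the share of all genes with such an order was not computed. The naive WT groups of the W250S and KO-labelled sets did not overlap for 6 of the 8 tested genes: S1pr1, Ccr7, Cd44, Itgb7 and Ly6c1, all higher in the W250S set, and Cd69, lower there at 24.9 ± 2.1 against 39.4 ± 4.9 CPM (SD, n = 3 each). The share of all genes apart between these WT groups was not computed, so the count cannot be read as a trait of the receptors.

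Across the 25 RNA libraries the receptors fell into opposite patterns, given here as a description, since the points share cultures and tables. S1pr1 correlated with Il7r at r = 0.997, Ly6c1 at 0.996, Itgb7 at 0.992 and Itga4 at 0.988 on the log2(CPM + 1) scale, and with Cd44 at -0.927 and Cd69 at -0.815. The genes most like S1pr1 among 10745 ranked were Arl4c and Il6ra (both 0.998), and those most like Il7r were Pik3ip1 and Arhgef18 (both 0.998). Itgb7 was most like Kbtbd11 (0.998) and Stk10 (0.997), Itga4 most like Tnik (0.996) and Klf3 (0.995), Ly6c1 most like S1pr1 and Nsg2 (both 0.996), and Ccr7 most like Cnp (0.985) and Zfp746 (0.983). Cd44 was most like Pip5k1a (0.987) and Prkar2a (0.986), and Cd69, with the loosest matches, most like Zc3h12a (0.945) and Sat1 (0.928).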

How the data were processed

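RNA values are CPM per gene as deposited by the authors in 4 T cell tables, and ATAC-seq values are expected counts per peak over 1 peak set, also deposited by the authors. Per the submitters' processing notes the build was mm10, and Partek 10.0.21.0411, MACS2, DESeq2, Bowtie2 and BWA were used, in roles that are not stated. Of low CPM values, 86.0 to 88.8% were whole multiples (tolerance 0.02) of a step that gives 46.6 to 70.5 M units per library, so reads were not recovered. Columns were matched to samples by their header names; in the Th17 tables the replicate number is the column's own and may not be that of the sample title.

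Each RNA table was fitted alone with limma 3.58.1 (lmFit, eBayes with trend; R 4.3.3) on log2(CPM + 1), for genes with 1 CPM in at least 3 libraries, two-sided, and called where the adjusted p (Benjamini-Hochberg) was under 0.05. Contrasts between tables were fitted over the 18 W250S-set libraries (17404 shared genes) or the 13 naive libraries (19055). Those between WT groups were planned as tests only if each library proved scaled by its own total alone. With 86.0 to 88.8% of low values in whole steps this was only partly shown, so their p-values are a description. Peak counts were rounded (60 of 521466 were not whole) and tested with edgeR 4.0.16 (TMM, filterByExpr, quasi-likelihood), with DESeq2 1.42.0 as an alternative. The fits were also run on simulated data in which all genes, or all peaks, shared the same spread, so nothing about these libraries is drawn from that run. The receptors, gene lists, comparisons and alternatives were chosen with earlier results of these data known. Genes named are the 9 receptors, Elf4, up to 4 called list genes with the largest change and a group mean of at least 5 CPM, up to 2 abundant uncalled ones, and the start and largest peak of each receptor. Date-like gene names (19 or 20 a table) were left out. The 18 macrophage libraries are not used here. Some list genes that the naming rule picks are not reported here.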

Additional observations from a re-analysis of the deposited data

How the results depend on the processing

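Counts of members called were recomputed under each alternative and without each library, and 24 of 147 moved by over 1.5 times. Without the filter on low values 1 member was called in KO-labelled naive cells. Same-number correlations of deviations were not all above 0.1 in any comparison, so the data do not clearly bear out a pairing by replicate number. They were 0.164, 0.064 and -0.039 in the KO-labelled naive set. In naive W250S (0.192, 0.033 and 0.324) and non-pathogenic cells (0.012, 0.059 and 0.175) all were above 0. With that number as a block, 3 members were called in naive W250S, 3 in non-pathogenic W250S and 3 in KO-labelled naive cells. All genes called went from 513 to 1256, 906 to 1468 and 1034 to 1592. Calls gained were Itga4, Ly6c1 and Cd69 in naive W250S cells (limma adjusted p 0.00943, 0.0103 and 0.0367). Ccr7 and Cd69 were gained in non-pathogenic cells (0.00828 and 0.0278), and Itgb7 in KO-labelled naive cells (0.0298). KO-labelled replicate 4 has no WT library of the same number, so the block takes it out of that difference. Itgb7 was 0.267 both with the block and without that replicate, so the 2 results are not separate. After median-ratio scaling 4 were called in non-pathogenic W250S cells, with all genes called going from 906 to 1703. Between the WT cultures 0 were called with a pseudocount of 0.1, without the filter and after scaling. Without 1 library each, the counts ranged from 1 to 3 in KO-labelled naive, 0 to 1 in naive W250S, 1 to 2 in pathogenic, 0 to 2 in non-pathogenic, 0 to 1 between WT cultures and 0 to 1 for the W250S effect in non-pathogenic minus naive cells.

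Values near 0 changed sign, none of them called. After scaling, naive W250S Ccr7 was -0.029 and non-pathogenic W250S Il7r -0.024. Without 1 library each, KO-labelled naive Cd69 ranged from -0.15 to 0.023 and Il7r from -0.10 to 0.015, naive W250S Il7r from -0.22 to 0.077, pathogenic Ly6c1 from -0.21 to 0.074, and non-pathogenic Il7r from -0.14 to 0.25 and S1pr1 from -0.078 to 0.22. Between WT cultures Ccr7 ranged from -0.069 to 0.17, Itga4 from -0.076 to 0.25, Il7r from -0.39 to 0.003 and S1pr1 from -0.18 to 0.024. The Cd44 difference of W250S effects between cultures ranged from -0.23 to 0.076, and the KO-labelled minus W250S difference from -0.037 to 0.21 for Cd44 and -0.037 to 0.094 for Ly6c1. Of the peaks, S1pr1 was 0.00 by total counts and ranged from -0.062 to 0.032, the Itgb7 start from -0.061 to 0.24, Itgae from -0.105 to 0.19 and the Cd69 start from -0.165 to 0.028. The cause was not tested.

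All peaks called numbered 4, against 67 with DESeq2, 36 by total counts, 52 without the filter, 0 with the block and 0 to 2070 without 1 library, with 0 member peaks in each. Leaving out 1 library moved all genes called from 454 to 1378 in KO-labelled naive, 203 to 556 in naive W250S, 42 to 372 in pathogenic and 54 to 2110 in non-pathogenic cells. The edgeR test on reads recovered from CPM was not run, since reads were not recovered.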
